A study of Mus musculus with 15 samples.

Results

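The genes described here are 10 genes of T cells and cytotoxic lymphocytes, namely Cd3d, Cd3e, Cd3g, Cd247, Cd4, Cd8a, Lck, Foxp3, Gzmb and Nkg7, chosen by their symbols from the 18929 genes of a bulk RNA sequencing table of mouse skin. All 10 were in the table, and all 10 passed the filter on low counts that left 15369 genes for testing. Skin was sequenced from 15 samples in 5 groups of 3. The wild-type mice of the wound experiment were male BALB/c mice of 4 to 6 weeks, an inbred strain that keeps its own T cells, and received full-thickness excisional wounds of the dorsal skin that measured 10 mm or 15 mm. Each wound was filled with Matrigel microbeads, which were either all without cells (acellular) or included beads that carried human umbilical cord mesenchymal stem cells at high density (HDB), so the cells given were of another species than the host. The remaining group was normal skin of mice labelled wild type, for which strain and age were not given separately. For the sequenced skin the methods name 4 weeks of implantation, although the wound experiment is said to have ended on day 21. No source states that the 3 samples of a group came from separate animals, so p-values measure the spread between these samples, which may be partly technical.

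A T cell recognises antigen through a receptor whose variable chains are held at the surface by the CD3 chains, which Cd3d, Cd3e and Cd3g encode, and by the zeta chain that Cd247 encodes. CD4 and CD8 are coreceptors that bind the presenting molecule and bring the kinase Lck to the receptor. Lck then phosphorylates the CD3 and zeta tails, the earliest step of the signal. FOXP3 is the transcription factor that defines regulatory T cells, a subset that restrains other lymphocytes and is well represented in skin. Granzyme B, from Gzmb, is a protease of cytotoxic granules, and NKG7 is a granule membrane protein of cytotoxic T cells and natural killer cells. Mouse epidermis also houses a dense network of resident gamma delta T cells, which use the same CD3 chains. The comparisons ask how much RNA of these genes the skin held after wounds filled with or without stem cells, and how that compared with skin that was not wounded.

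Estimated read counts summed to between 15840551 and 18404188 per sample, and levels are given as TMM-normalized CPM, that is counts scaled to a common library size, a scale in which 1 read was worth about 0.06 CPM. Changes are log2 fold changes fitted in edgeR and tested by quasi-likelihood, p-values were adjusted by Benjamini-Hochberg over all 15369 genes, and a gene was called at an adjusted p under 0.05. Replicate 1 of the acellular 15 mm group stood apart from the other wounds. Its 9 hair shaft genes summed to 18650 CPM against 11.7 to 1340 CPM in the other 11 wound samples, and its 8 pan-leukocyte genes summed to 93.8 CPM, the lowest of all 15 samples. It held the lowest wound value of 8 of the 10 genes. Replicate 3 of the acellular 15 mm group and replicate 3 of the HDB 10 mm group each held the highest wound value of 4 of them. Keratinocyte and fibroblast genes were abundant in every sample (sums of at least 7658 and 3537 CPM), while 10 skeletal muscle genes summed to between 772 and 37080 CPM in wounds and to between 50560 and 60780 CPM in normal skin.

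The loci lie on 7 chromosomes of the GRCm38 assembly. Cd3g (chr9:44969572-44980431, minus strand) and Cd3d (chr9:44981769-44987052, plus strand) stand head to head, with annotated starts 1338 bases apart, and Cd3e (chr9:44998735-45009663, minus strand) starts beyond the far end of Cd3d. Lck spans chr4:129548344-129573641 on the minus strand and Foxp3 chrX:7579676-7595243 on the plus strand. Upstream sequence was matched by gene for 9 of the 10 members in RefSeq's table of the GRCm38.p6 build, not for Cd4. The 250 bases before the start are shown for the 3 neighbouring CD3 genes, whose levels moved together, and for the pair of genes that were called, Lck with both of its starts (distal, then proximal) and Foxp3 likewise (outer, then inner). Each is written 5′ to 3′ on the gene's own strand. Capitals mark matches, on either strand, to motifs named for the factors known to bind such letters. The RUNX motif was searched as TGTGGT, and the ETS motif was searched as AGGAAG. For GATA factors the letters were AGATAA, for the TATA box they were TATAAA. An E-box was searched in the form CAGGTG and in a second common form, CAGCTG. No marked matches overlap one another.
Cd3g, chr9:44980432-44980681: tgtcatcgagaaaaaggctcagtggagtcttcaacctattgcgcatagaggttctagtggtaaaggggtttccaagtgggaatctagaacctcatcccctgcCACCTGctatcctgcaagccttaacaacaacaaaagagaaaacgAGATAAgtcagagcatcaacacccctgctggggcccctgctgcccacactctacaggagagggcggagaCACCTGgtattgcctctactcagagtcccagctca
Cd3d, chr9:44981536-44981785: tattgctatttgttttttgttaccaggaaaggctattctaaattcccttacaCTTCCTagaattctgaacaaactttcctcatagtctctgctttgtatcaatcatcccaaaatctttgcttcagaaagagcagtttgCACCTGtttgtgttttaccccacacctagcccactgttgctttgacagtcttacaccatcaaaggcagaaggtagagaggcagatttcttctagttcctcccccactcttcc
Cd3e, chr9:45009612-45009861: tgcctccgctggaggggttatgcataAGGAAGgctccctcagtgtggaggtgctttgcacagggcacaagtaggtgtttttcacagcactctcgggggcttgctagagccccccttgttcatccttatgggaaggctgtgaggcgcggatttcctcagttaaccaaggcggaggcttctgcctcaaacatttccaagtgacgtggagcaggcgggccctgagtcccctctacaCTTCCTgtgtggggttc
Lck, distal start, chr4:129573642-129573891: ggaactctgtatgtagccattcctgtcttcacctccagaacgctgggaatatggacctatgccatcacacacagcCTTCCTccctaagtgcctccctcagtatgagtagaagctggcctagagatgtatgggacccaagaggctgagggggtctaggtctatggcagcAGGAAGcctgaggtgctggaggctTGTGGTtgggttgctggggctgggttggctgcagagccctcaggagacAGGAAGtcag
Lck, proximal start, chr4:129558373-129558622: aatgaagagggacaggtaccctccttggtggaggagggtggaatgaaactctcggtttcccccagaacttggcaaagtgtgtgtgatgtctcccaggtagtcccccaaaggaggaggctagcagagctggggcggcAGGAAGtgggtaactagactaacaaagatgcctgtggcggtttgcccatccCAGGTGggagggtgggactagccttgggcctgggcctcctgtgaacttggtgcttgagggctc
Foxp3, outer start, chrX:7579426-7579675: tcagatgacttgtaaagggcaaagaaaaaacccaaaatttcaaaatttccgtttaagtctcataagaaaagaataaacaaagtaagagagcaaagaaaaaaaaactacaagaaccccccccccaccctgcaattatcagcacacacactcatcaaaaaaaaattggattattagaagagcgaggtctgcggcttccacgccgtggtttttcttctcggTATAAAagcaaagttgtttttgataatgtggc
Foxp3, inner start, chrX:7580233-7580482: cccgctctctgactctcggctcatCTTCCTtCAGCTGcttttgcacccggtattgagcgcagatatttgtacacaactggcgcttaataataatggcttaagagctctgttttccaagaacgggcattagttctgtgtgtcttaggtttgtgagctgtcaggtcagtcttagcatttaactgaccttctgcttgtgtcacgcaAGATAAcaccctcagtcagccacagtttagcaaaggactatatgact

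The ETS letters occurred in the windows of Cd3d, Cd3e, both Lck starts and the inner Foxp3 start, and in 29.5% of all 32851 RefSeq promoter windows of 250 bases. E-box letters occurred before Cd3g, Cd3d, the proximal Lck start and the inner Foxp3 start, against 27.7% of all windows. The distal Lck window held the RUNX letters (14.0% of all windows), the windows of Cd3g and the inner Foxp3 start the GATA letters (9.99%), and the outer Foxp3 window the TATA letters 32 bases before the start (12.4%). No kind of match was common to all 7 windows. These matches describe letters and say nothing of binding.

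Of the receptor chains, Cd3g was the most abundant. Per kilobase of the longest coding transcript, the mean level over 15 samples was 13.2 ± 5.67 CPM (SD) for Cd3g, 2.40 ± 1.05 for Cd3e, 1.57 ± 0.53 for Cd247 and 1.40 ± 0.61 for Cd3d. Of the other members, Nkg7 lay at 5.79 ± 2.89 and Lck at 3.42 ± 1.46 on that scale. The lowest were Cd4 at 0.68 ± 0.47, Foxp3 at 0.34 ± 0.27, Gzmb at 0.32 ± 0.25 and Cd8a at 0.26 ± 0.13 CPM per kilobase. In this order Cd3g differed from Nkg7, and Cd3d from Cd4, by more than the SD of both genes, and no other neighbouring pair did.

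Cd3g stood at 18.9, 9.55 and 8.71 CPM in acellular 10 mm wounds, 11.7, 13.6 and 18.9 in HDB 10 mm wounds, 2.10, 7.99 and 21.4 in acellular 15 mm wounds, 10.6, 13.6 and 24.9 in HDB 15 mm wounds, and 14.8, 10.9 and 14.7 in normal skin. All 5 groups overlapped, and the acellular 15 mm group alone spanned nearly the whole range. Cd3e stood at 4.00, 2.75 and 2.57 CPM in acellular 10 mm wounds, 3.20, 3.07 and 4.39 in HDB 10 mm wounds, 0.51, 1.52 and 6.0 in acellular 15 mm wounds, 2.57, 3.39 and 5.36 in HDB 15 mm wounds, and 6.04, 3.75 and 3.56 in normal skin. No wound sample exceeded the highest normal sample for Cd3e, and 8 of 12 lay below the lowest. Cd3d ranged from 0.40 to 3.89 CPM over the wounds and from 1.48 to 2.35 CPM in normal skin. Cd247 ranged from 1.19 to 7.17 CPM in wounds and from 4.29 to 6.29 CPM in normal skin.

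None of the 4 chains was called between wounds and normal skin. The log2 change was −0.45 ± 0.48 (SE) for Cd3e, −0.01 ± 0.48 for Cd3g, −0.25 ± 0.37 for Cd247 and 0.29 ± 0.46 for Cd3d, each with n = 12 against 3 in edgeR. All 4 point estimates were above 0 in HDB against acellular wounds, at 10 mm between 0.10 for Cd247 and 0.65 for Cd3d, and at 15 mm between 0.49 for Cd3e and 0.65 for Cd3d, with standard errors between 0.48 and 0.63. Those at 15 mm turn on single samples of the acellular group. Without its replicate 1 the estimates were 0.0047 for Cd3e, 0.16 for Cd3g, 0.18 for Cd3d and 0.19 for Cd247, none of them called. Without its replicate 3 they moved the other way, and Cd3e was called higher in HDB wounds by 1.89 (edgeR, adjusted p = 0.031) and Cd247 by 1.55 (adjusted p = 0.024), and in acellular 15 mm wounds against normal skin Cd3e was called lower by −2.13 (adjusted p = 0.0084) and Cd247 by −1.46 (adjusted p = 0.011).

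**Figure D1:**
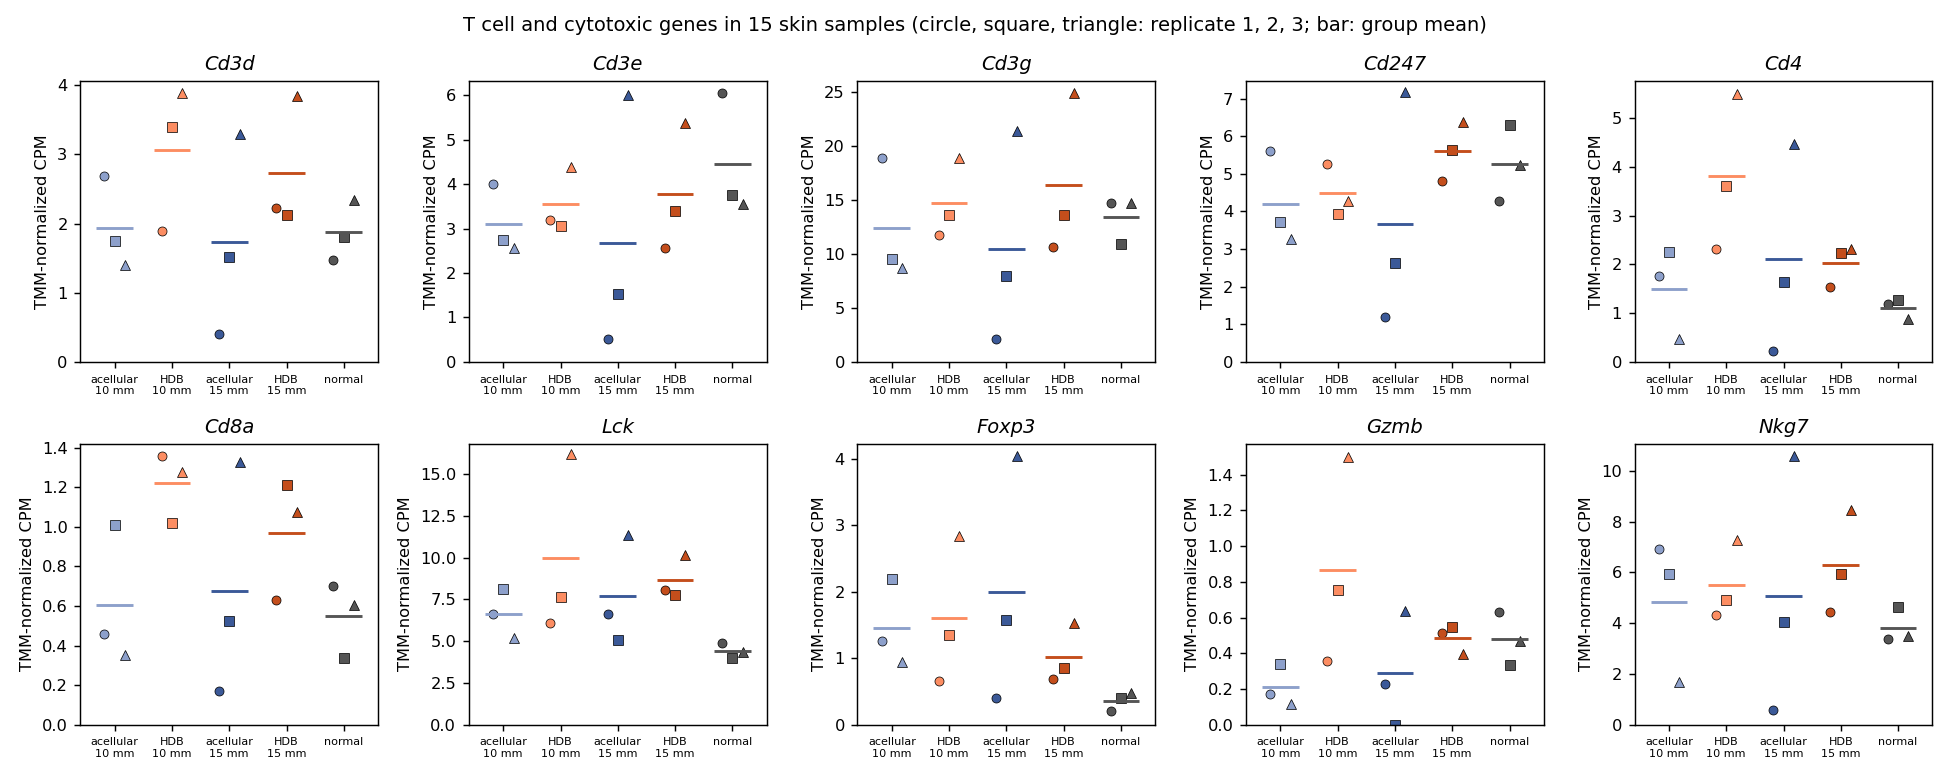
TMM-normalized CPM (y axis, linear from 0) of each of the 10 genes in the 5 groups (x axis); each marker is 1 sample, its shape gives the replicate number and the bar is the group mean. Replicate 1 of the acellular 15 mm group is at or near the bottom of most panels, and only for Lck do all 12 wound samples lie above the 3 normal ones.

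The coreceptors were low and leaned the same way in 10 mm wounds. Cd4 stood at 1.77, 2.25 and 0.47 CPM in acellular 10 mm wounds, 2.31, 3.61 and 5.50 in HDB 10 mm wounds, 0.23, 1.63 and 4.46 in acellular 15 mm wounds, 1.54, 2.24 and 2.32 in HDB 15 mm wounds, and 1.19, 1.27 and 0.87 in normal skin. Cd8a stood at 0.46, 1.01 and 0.35 CPM in acellular 10 mm wounds, 1.36, 1.02 and 1.28 in HDB 10 mm wounds, 0.17, 0.53 and 1.33 in acellular 15 mm wounds, 0.63, 1.21 and 1.07 in HDB 15 mm wounds, and 0.70, 0.33 and 0.60 in normal skin. At 10 mm every HDB sample was above every acellular sample for both genes, although for Cd8a the nearest samples were 1.02 and 1.01 CPM. With Gzmb, 3 of the 10 members had no overlap in that direction, against 4.53% of all genes tested.

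Neither coreceptor was called in these comparisons. Between HDB and acellular 10 mm wounds the log2 change was 1.34 ± 0.75 (SE) for Cd4 and 1.00 ± 0.60 for Cd8a in edgeR, with an adjusted p of 1.00 for both. At 15 mm it was −0.06 ± 0.74 for Cd4 and 0.51 ± 0.60 for Cd8a. Cd4 exceeded the highest normal sample in 10 of 12 wound samples, and its log2 change in all wounds against normal skin was 0.99 ± 0.65 (edgeR, adjusted p = 0.26). Against normal skin, neither the HDB 10 mm group (1.77 ± 0.77, edgeR, adjusted p = 0.14) nor the acellular 15 mm group (0.92 ± 0.77, adjusted p = 0.38) reached a call for Cd4.

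Lck was higher in wounds than in normal skin. It stood at 6.62, 8.14 and 5.20 CPM in acellular 10 mm wounds, 6.10, 7.64 and 16.2 in HDB 10 mm wounds, 6.63, 5.08 and 11.4 in acellular 15 mm wounds, 8.05, 7.76 and 10.2 in HDB 15 mm wounds, and 4.92, 4.02 and 4.36 in normal skin. All 12 wound samples lay above all 3 normal samples, a separation that 9.86% of all genes tested showed in that direction and 1 of the 10 members. The lowest wound and the highest normal sample differed by little, 5.08 against 4.92 CPM. The wound mean was 8.25 ± 3.12 CPM (SD, n = 12) and the normal mean 4.43 ± 0.45 (n = 3), a log2 change of 0.88 ± 0.31 (SE) with an adjusted p of 0.049 in edgeR. Among all genes tested 14.2% were called higher in this comparison and 30.9% in either direction, so the 2 of 10 members called (Lck and Foxp3) make up a share near the background. Both calls lay close to the threshold. Leaving out 1 sample at a time, Lck was called in 5 of 15 edgeR fits (without acellular 15 mm replicate 1, 2 or 3 or HDB 10 mm replicate 1 or 3) and Foxp3 in 4 (without acellular 10 mm replicate 3, acellular 15 mm replicate 1 or 3 or HDB 10 mm replicate 1). With any 1 normal sample left out neither was called, at adjusted p between 0.11 and 0.17, and the log2 change stayed between 0.81 and 0.97 for Lck and between 1.76 and 2.25 for Foxp3. With the muscle genes as a covariate neither was called (0.51 for Lck and 1.43 for Foxp3, edgeR, adjusted p = 0.39 and 0.27), and DESeq2 called both. The muscle genes were higher in every normal sample than in any wound, so the covariate fit cannot separate muscle RNA from wounding.

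Foxp3, the regulatory T cell factor, showed the largest of the 10 changes between wounds and normal skin. It stood at 1.26, 2.19 and 0.94 CPM in acellular 10 mm wounds, 0.65, 1.35 and 2.83 in HDB 10 mm wounds, 0.40, 1.58 and 4.04 in acellular 15 mm wounds, 0.69, 0.85 and 1.52 in HDB 15 mm wounds, and 0.21, 0.40 and 0.47 in normal skin. In normal skin this was 3, 6 and 7 reads, so the base of the comparison is small. All wound samples but replicate 1 of the acellular 15 mm group, 11 of 12, lay above the normal samples. The wound mean was 1.52 ± 1.05 CPM (SD, n = 12) and the normal mean 0.36 ± 0.13 (n = 3), a log2 change of 2.01 ± 0.70 (SE) with an adjusted p of 0.045 in edgeR. By group, against the same normal samples, the log2 change was 1.99 ± 0.80 in acellular 10 mm wounds (edgeR, adjusted p = 0.089), 2.45 ± 0.80 in acellular 15 mm wounds (0.037), 2.13 ± 0.80 in HDB 10 mm wounds (0.093) and 1.48 ± 0.80 in HDB 15 mm wounds (0.26).

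Foxp3 was thus the only member called in a single wound group, in acellular 15 mm wounds, where 17.6% of all genes were called higher and 30.2% in either direction, and that call ended without replicate 3 of that group or without any 1 normal sample. In the other wound groups edgeR called 0 of 10 members against normal skin, where 20.3% (acellular 10 mm), 12.3% (HDB 10 mm) and 5.18% (HDB 15 mm) of all genes were called. An unadjusted p under 0.05 was reached there by 1, 3 and 1 members, against 38.3%, 31.6% and 26.9% of all genes, and DESeq2 called 1, 2 and 0. Foxp3 in HDB against acellular wounds changed by 0.14 ± 0.71 at 10 mm and by −0.97 ± 0.72 at 15 mm, without a call at either size. Reads from the strand opposite Foxp3 cannot be told apart here, since the counting is not stated to use strand and exons of Ccdc22 and Ppp1r3f overlap the locus. The mean of Ccdc22 was 22.0 CPM in wounds and 21.4 in normal skin, and that of Ppp1r3f 3.65 CPM in wounds and 5.18 in normal skin. Cd247 likewise overlaps exons of Pou2f1 on the other strand.

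**Figure D2:**
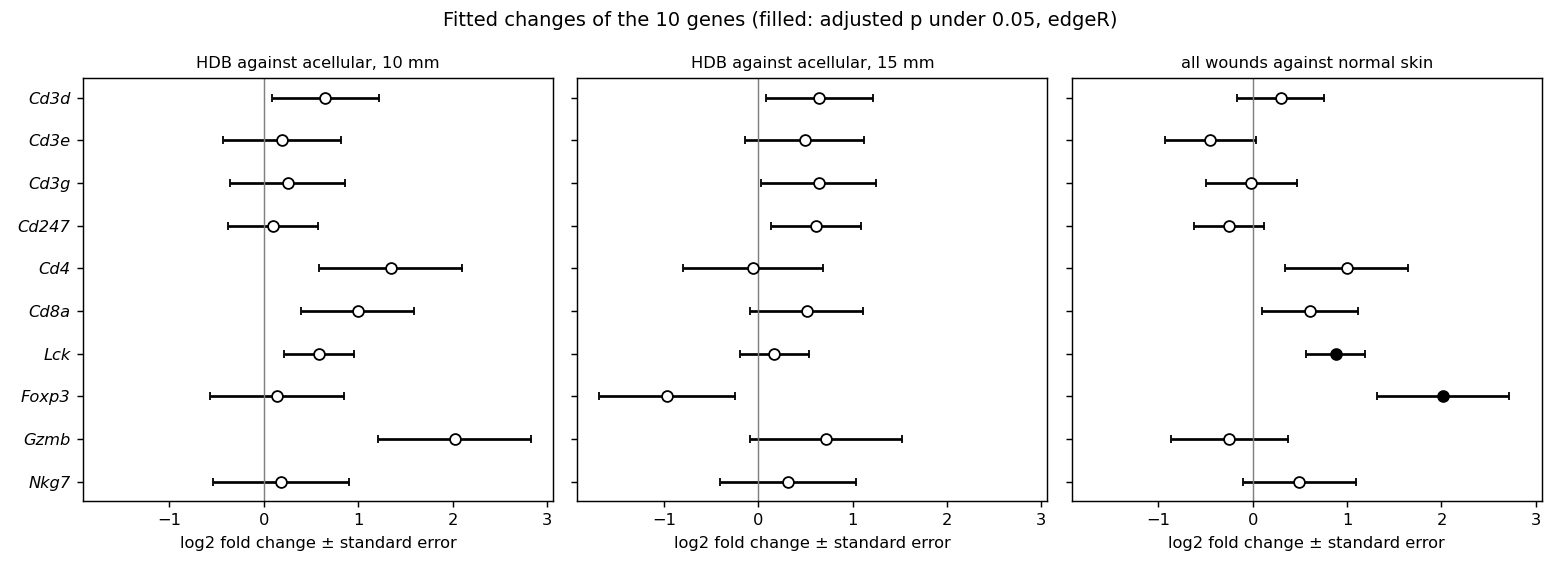
Log2 fold change with its standard error (x axis) of each of the 10 genes (y axis) in HDB against acellular wounds at 10 mm and at 15 mm (n = 3 against 3 each) and in all wounds against normal skin (n = 12 against 3); filled points passed an adjusted p of 0.05 in edgeR. Only Lck (0.88) and Foxp3 (2.01) in wounds against normal skin are filled.

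Neither granule gene was called in the comparisons below. Gzmb was near the limit of detection, with 3, 6 and 2 reads in acellular 10 mm wounds, 6, 14 and 27 in HDB 10 mm wounds, 4, 0 and 12 in acellular 15 mm wounds, 9, 9 and 7 in HDB 15 mm wounds, and 9, 5 and 7 in normal skin. In CPM the HDB 10 mm group (0.36, 0.75 and 1.5) lay above the acellular 10 mm group (0.17, 0.34 and 0.12) without overlap, by a narrow margin of 0.36 against 0.34. The log2 change there was 2.02 ± 0.81 (SE), and over both sizes it was 1.37 ± 0.57. In neither was Gzmb called (edgeR, adjusted p = 1.00 and 0.29). Nkg7 ranged from 1.70 to 6.91 CPM in acellular 10 mm wounds, from 4.32 to 7.28 in HDB 10 mm wounds, from 0.57 to 10.6 in acellular 15 mm wounds, from 4.46 to 8.47 in HDB 15 mm wounds and from 3.37 to 4.62 in normal skin. Its log2 change was 0.50 ± 0.60 in wounds against normal skin (edgeR, adjusted p = 0.55).

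Between HDB and acellular wounds, no member was called. The stem cell comparison was made for the 10 mm wounds, for the 15 mm wounds and with sizes combined, and edgeR called 0 of 10 members in each, while 0%, 2.93% and 0% of all genes were called. An unadjusted p under 0.05 was reached by 1, 0 and 1 members (Gzmb both times), against 3.53%, 23.2% and 15.8% of all genes, and DESeq2 called 0 members in each. The median log2 change of the 10 members was 0.42 at 10 mm, where 10 of 10 estimates were above 0, and 0.50 at 15 mm, where 8 of 10 were. Over all genes the median was −0.01 at 10 mm and 0.00 at 15 mm. The 8 pan-leukocyte genes moved in the same direction, with 8 of 8 estimates above 0 at each size, medians of 0.44 and 0.41, and none called. Some other cell types moved as much or more, also without a call. At 10 mm and at 15 mm, 8 of 8 fibroblast genes (medians 1.12 and 0.91) and 10 of 10 macrophage genes (0.48 and 0.81) were above 0, as were 8 and 7 of 8 mast cell genes (1.26 and 0.98), while 9 of 9 hair shaft genes were below 0 (−5.18 and −4.87). The 10 skeletal muscle genes had medians of −0.08 and 1.29. Keratinocyte genes lay on both sides of 0, from −0.50 (Dsg3) to 0.34 (Krt1) at 10 mm and from −0.82 (Dsg3) to 0.43 (Krt10) at 15 mm. The summed level of the pan-leukocyte genes was 214 to 561 CPM in acellular 10 mm, 286 to 643 in HDB 10 mm, 93.8 to 629 in acellular 15 mm, 325 to 510 in HDB 15 mm and 316 to 389 in normal skin, with no gene of the list at 0 in a group, and the part of the fibroblast, macrophage and mast cell genes in the members' values was not tested. With the pan-leukocyte genes as a covariate, 5 of 10 members were above 0 at 10 mm (median −0.01) and 7 at 15 mm (0.27), and with the hair shaft genes 5 (−0.13) and 8 (0.38). With the muscle genes 9 of 10 were above 0 at both sizes (0.31 and 0.94), and edgeR called no member in any of these fits. In such bulk RNA fewer cells of a type and less RNA per cell cannot be told apart. Neither the difference of the stem cell contrast between sizes (0% of all genes called) nor 15 mm against 10 mm wounds (0.397%) gave a call for a member in edgeR, with 0 members at an unadjusted p under 0.05 (13.4% and 15.1% of all genes) and 0 called by DESeq2 in both.

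Levels of the receptor chains followed one another across samples. As a description over 15 samples that share depth and tissue makeup, Pearson's r of log2 CPM was 0.94 between Cd3e and Cd3g, 0.93 between Cd3d and Cd3g, 0.90 between Cd3e and Cd247 and 0.89 between Cd3g and Nkg7. Lck and Foxp3 followed the chains less closely, with r of 0.23 and 0.24 to Cd3e over all samples and 0.54 and 0.65 over the 12 wounds. Outside the members, the genes most like Cd3e over 15 samples were Prf1 (r = 0.97), which encodes perforin, Cd7 (0.94), a surface protein of T cells, Trat1 (0.92), an adaptor of the T cell receptor, Fgfr4 (0.91), a growth factor receptor, and Gab3 (0.91), an adaptor protein. Cd3g followed the summed pan-leukocyte genes with r of 0.79 over 15 samples, 0.82 over the 12 wounds and 0.53 over the 11 wounds without replicate 1 of the acellular 15 mm group, so part of that relation rests on 1 sample. That sample held 37 reads of Cd3g and 117 of Lck, a count of Lck much like the 87 to 292 reads of the other wounds.

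**Figure D3:**
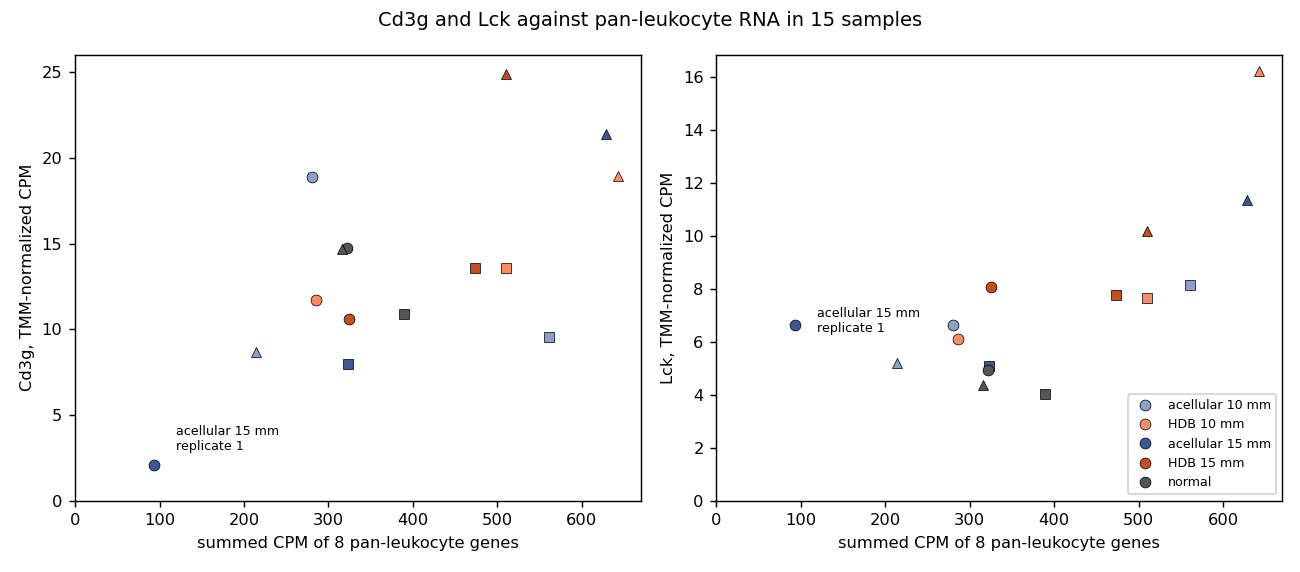
Cd3g (left) and Lck (right) in TMM-normalized CPM (y axes) against the summed CPM of 8 pan-leukocyte genes (x axes); each marker is 1 of 15 samples, coloured by group, with shapes for replicates 1 (circle), 2 (square) and 3 (triangle). Replicate 1 of the acellular 15 mm group has the lowest pan-leukocyte level (93.8 CPM) and the lowest Cd3g (2.10 CPM), but an Lck level of 6.63 CPM, inside the range of the other wounds.

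Because Foxp3 and the CD3 chains did not move together against normal skin, Foxp3 was also set against Cd3g within each sample, a ratio chosen after these values had been seen and not independent of the Foxp3 change given above. Per 100 Cd3g reads there were 6.65, 22.9 and 10.7 Foxp3 reads in acellular 10 mm wounds, 5.56, 9.88 and 15.0 in HDB 10 mm wounds, 18.9, 19.7 and 18.9 in acellular 15 mm wounds, 6.45, 6.25 and 6.12 in HDB 15 mm wounds, and 1.43, 3.68 and 3.20 in normal skin. All 12 wounds lay above all 3 normal samples. This includes replicate 1 of the acellular 15 mm group, which had the lowest Foxp3 level of the wounds. On the log2 scale with 0.5 added to each count the difference was 1.96 (p = 0.0022 by exact permutation, two-sided, which is the lowest possible with 455 arrangements, adjusted p = 0.031 over 14 such tests of 7 genes). Between HDB and acellular wounds over both sizes the difference was −0.97 (p = 0.03 by exact permutation within each size, adjusted p = 0.21), which did not pass. Relative to Cd3g, Lck gave a difference of 1.01 between wounds and normal skin, with 11 of 12 wounds above all normal samples (exact permutation p = 0.064, adjusted p = 0.22), and one of 0.81 without replicate 1 of the acellular 15 mm group (exact permutation p = 0.0082, not adjusted). Cd4 gave a difference of 0.90 between wounds and normal skin (exact permutation p = 0.064, adjusted p = 0.22) and Cd247 one of −0.14 (exact permutation p = 0.58, adjusted p = 0.70). Without replicate 1 of the acellular 15 mm group these were 0.93 and −0.21 (exact permutation p = 0.066 and 0.40, not adjusted).

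**Figure D4:**
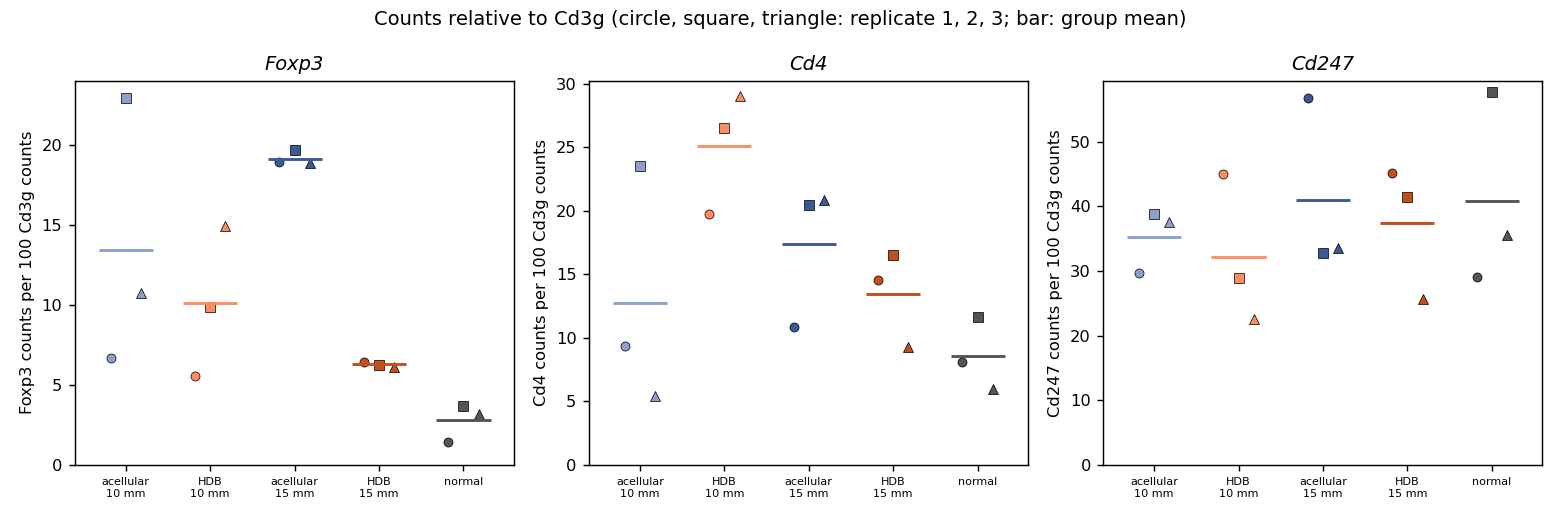
Reads of Foxp3, Cd4 and Cd247 per 100 reads of Cd3g (y axes, linear from 0) in the 5 groups (x axes); each marker is 1 sample, its shape gives the replicate number and the bar is the group mean. For Foxp3 all 12 wound samples (5.56 to 22.9) lie above the 3 normal samples (1.43 to 3.68), while Cd4 and Cd247 overlap between wounds and normal skin.

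Wider lists of the same cells were read beside the members. Of 20 tested genes of T cell receptor signalling and the T cell surface, 2 rose in wounds against normal skin and none fell, with a list median of 0.63 on the log2 scale against 0.04 for all genes, and 2 of 20 is no larger a share than the 14.2% of all genes called higher there. They were Bcl11b, a transcription factor of T cell commitment that keratinocytes also express (88.2 ± 24.8 CPM in wounds, 49.97 ± 4.15 in normal skin, log2 change 0.78, edgeR, adjusted p = 0.0080), and Cd5, a surface receptor that tempers T cell receptor signals (1.69 ± 0.81 against 0.66 ± 0.12 CPM, log2 change 1.29, adjusted p = 0.046). The Cd5 call held in 5 of the 15 edgeR fits that left out 1 sample, and that of Bcl11b in 14 (not without normal replicate 3). Tcf7, another T cell transcription factor, lay at 0.89 (adjusted p = 0.068) and Fyb, an adaptor, at 0.16 (adjusted p = 0.76). Trac, Trbc1 and Trbc2, the constant genes of the alpha and beta receptor chains, were not analysed here.

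Of 15 tested cytotoxic and natural killer genes, 3 rose in wounds and none fell, with a median of 0.87, a share near the background of 14.2% higher and 30.9% in either direction. Gzmc, a granzyme of activated lymphocytes, stood at 98.8 ± 55.8 CPM in wounds against 8.32 ± 3.77 in normal skin, a log2 change of 3.56 ± 0.79 (SE, edgeR, adjusted p = 0.0075). Gzmb, of the same family, did not share this change. How reads of near-identical granzymes were split is uncertain. Xcl1, a chemokine of activated T and natural killer cells, rose by 2.94 (8.10 ± 4.29 against 1.04 ± 0.61 CPM, edgeR, adjusted p = 0.015). Ctsw, a protease of cytotoxic lymphocytes, rose by 2.08 (17.2 ± 8.50 against 4.06 ± 0.47 CPM, adjusted p = 0.026). Il2rb, a receptor chain for interleukins of these cells, lay at 1.2 (adjusted p = 0.12). Of these calls Gzmc held in all 15 edgeR fits that left out 1 sample, Xcl1 in 13 (not without normal replicate 1 or 3) and Ctsw in 12 (not without any 1 normal sample). In replicate 1 of the acellular 15 mm group Gzmc (10.3 CPM), Ctsw (2.27 CPM) and Xcl1 (0.79 CPM) were at their lowest wound value, inside or below the normal range.

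Of 12 tested regulatory T cell and checkpoint genes, 2 rose and 1 fell, with a median of 0.51, again near those shares of all genes. Tnfrsf18, the costimulatory receptor GITR, stood at 37.1 ± 9.91 CPM in wounds against 15.3 ± 1.01 in normal skin (log2 change 1.26, edgeR, adjusted p = 0.0042), and all 12 wounds were above normal skin (16.6 CPM at the lowest against 16.2 at the highest). Tnfrsf4, the costimulatory receptor OX40, rose by 1.23 (9.70 ± 2.94 against 4.06 ± 1.52 CPM, adjusted p = 0.013). Tigit, an inhibitory receptor, fell by 0.96 (59.5 ± 24.8 against 114 ± 2.21 CPM, edgeR, adjusted p = 0.037), the opposite direction to Foxp3. In normal skin the mean of Tigit exceeded that of Ptprc, one of the pan-leukocyte genes (45.3 CPM), and of Cd3g (13.5 CPM). Tnfrsf18 and Ikzf2 (33.5 CPM) were also far above Foxp3 (0.36 CPM) there. Which cells the reads of Tigit, Tnfrsf18 and Ikzf2 came from was not tested. Leaving out 1 sample at a time, Tnfrsf18 was called in 15 of 15 edgeR fits, Tnfrsf4 in 13 (not without normal replicate 2 or 3) and Tigit in 8. Ikzf2, a transcription factor found in regulatory T cells, lay at 0.21 (adjusted p = 0.63). Of the genes of gamma delta T cells and type 17 cytokines, Fgf7, a growth factor for keratinocytes, and Sox13, a transcription factor of gamma delta T cells, lay at −0.20 and −0.15 and were not called. No gene of these 4 lists was called between HDB and acellular wounds at 10 mm or at 15 mm.

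**Figure D5:**
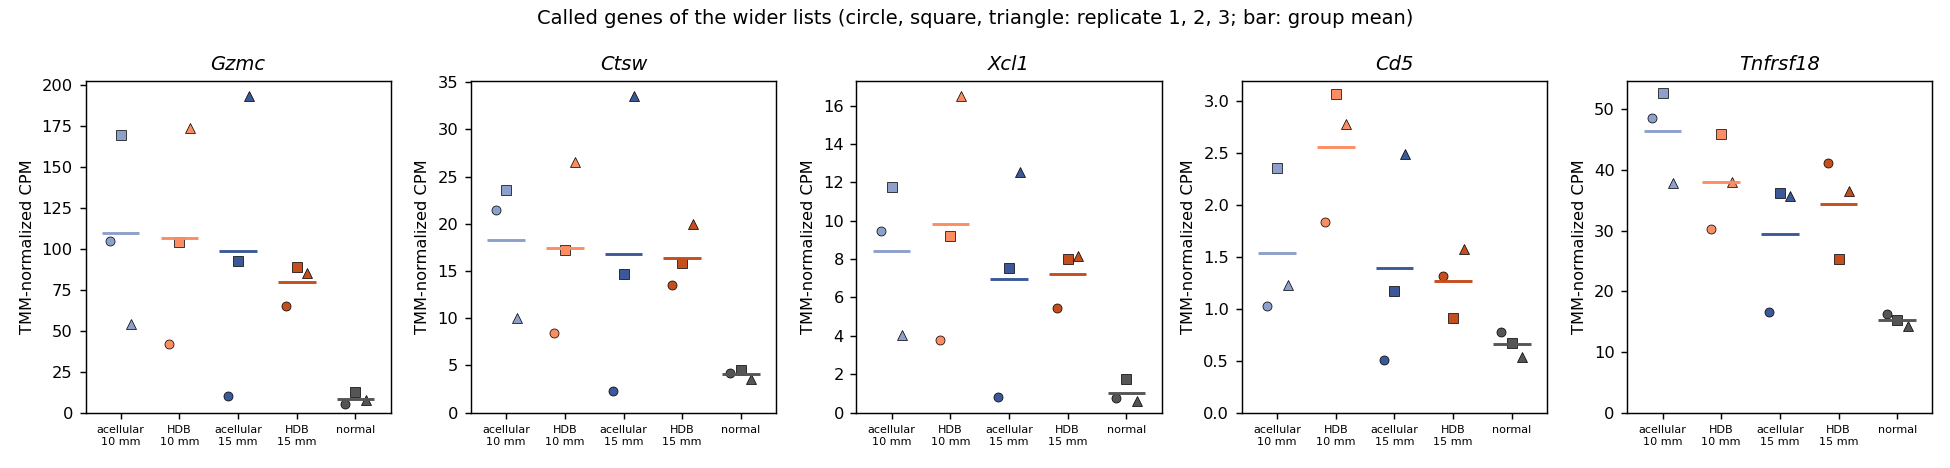
TMM-normalized CPM (y axes, linear from 0) of 5 called genes of the wider lists in the 5 groups (x axes); each marker is 1 sample, its shape gives the replicate number and the bar is the group mean. Gzmc averages 98.8 CPM over the wounds and 8.32 CPM in normal skin, with replicate 1 of the acellular 15 mm group near the normal level.

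Other cell types also differed between wounds and normal skin. Of 10 macrophage genes 7 were called lower in wounds, with sums of 84.4 to 497 CPM in wounds and 337 to 939 CPM in normal skin, while the 8 pan-leukocyte genes gave no call, with a median of 0.12. Of 10 skeletal muscle genes 10 were lower and 2 called, with a median of −1.94. Of 8 keratinocyte genes 3 were called higher, the basal genes Krt5 (1.07), Krt14 (1.33) and Trp63 (0.80), and 1 lower, the suprabasal keratin Krt10 (−0.95), with sums of 7658 to 20250 CPM in wounds and 7950 to 9441 CPM in normal skin. Their part in the Bcl11b change was not tested. Of 8 mast cell genes 3 were called lower, the proteases Mcpt4 (−1.50), Tpsb2 (−1.42) and Cpa3 (−2.00). Without a call, Cma1 (−1.06) and Ms4a2 (−0.80) were below 0, and Fcer1a (2.31), Kit (0.48) and Hdc (0.06) above 0. Of 8 dermal fibroblast genes 2 were called lower, Dcn (−1.39) and Dpt (−1.12), both of which encode matrix proteins, with sums of 3537 to 18740 CPM in wounds and 7589 to 24730 CPM in normal skin. Of 10 genes of dendritic and Langerhans cells 1 was called lower, Siglech (−1.47), a receptor of plasmacytoid dendritic cells. Cd209a (−1.11) and Zbtb46 (−0.60) were also below 0. The rest of that list was above 0, from 0.09 for Cd207 to 1.85 for Itgax, without a call. All 9 hair shaft genes were higher and 4 called, with sums of 11.7 to 18650 CPM against 5.97 to 6.29 CPM in normal skin. Of the B cell markers, Ms4a1, Cd79a and Pax5 did not pass the filter on low counts. With the pan-leukocyte genes as a covariate, which was added once the values were known, Lck (0.81, edgeR, adjusted p = 0.027) and Foxp3 (1.66, adjusted p = 0.0029) were called higher in wounds. With the muscle genes as a covariate, of the 8 list genes named as called above only Tnfrsf18 was called (1.08, edgeR, adjusted p = 0.046). The others kept their direction, with log2 changes of 3.04 for Gzmc (adjusted p = 0.056), 2.51 for Xcl1 (0.094), 1.02 for Tnfrsf4 (0.11), 0.55 for Bcl11b (0.098), 1.5 for Ctsw (0.18), 0.84 for Cd5 (0.30) and −0.64 for Tigit (0.33). The part of the macrophage genes in these changes was not tested.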

How the data were processed

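RNA was sequenced from oligo(dT)-selected mRNA of 15 skin samples, 3 in each of 5 groups. The authors deposited 1 table of estimated counts for 18929 mouse genes, not normalized, with between 2074 and 2237 genes per sample holding decimals. The submitters' processing notes name HISAT2 2.0.4, Bowtie2 2.2.5, RSEM 1.2.12 and GRCm38.p6, without roles. Such counts share out reads that match several transcripts, so values of similar genes depend on that step.

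Estimated counts were rounded. Tests were run with edgeR 4.0.16 (R 4.3.3), with TMM scaling and quasi-likelihood F tests on the 15369 genes that passed filterByExpr. All 5 groups entered a single model, and p-values were adjusted by the Benjamini-Hochberg method over all genes tested, with a threshold of 0.05. Standard errors are the log2 change divided by the square root of F. Log2 CPM used a prior count of 2. Total counts per sample of 15840551 to 18404188 make 1 read about 0.06 CPM, so genes with few reads are measured coarsely. Ratios to Cd3g (pseudocount 0.5) were compared by exact permutation in Python 3.11.15 with numpy 2.4.6. Locations and exon overlaps came from GENCODE annotation of GRCm38, and upstream sequence from RefSeq (GRCm38.p6). Scripts were tested on simulated counts.

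The members and gene lists were chosen with earlier results of these data known. Named were all members, the 3 most abundant genes of each wider list, up to 3 called ones with the smallest p, and the 5 genes most correlated with Cd3e. Some genes of the lists are not reported here. Replicate numbers are not explained by the labels. Same-number samples deviated together from their group means only between the acellular and HDB 15 mm groups (correlations of 0.397, 0.167 and 0.183). The edgeR tests reported as main results left this possible pairing out. The replicate block, fitted as an alternative, covered all 5 groups and not the 15 mm samples alone. Alternatives were DESeq2 1.42.0, no filter, a mean of at least 50 counts, only the groups compared, the replicate block, an absolute log2 change of at least 1 and leaving out each sample, and, added after the data were seen, marker lists as covariates.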

Additional observations from a re-analysis of the deposited data

How the results depend on the processing

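Over 49 log2 changes of members and called list genes, 725 alternative values were computed, of which 645 kept direction and side of the threshold, 52 fell below it, 2 passed it and 26 changed sign. Of all 100 member changes, 40 changed sign in at least 1 alternative, and none of these had been called. No cause of the shifts below was tested.

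Counts of members called against normal skin moved most. For all wounds (2 called) the count was 1 at an absolute log2 change of at least 1, 0 without a filter, 0 at a mean of at least 50 counts (5 members left), 1 with the replicate block, 0 with the muscle covariate, 4 with the hair shaft covariate and 0 to 2 leaving out a sample. For acellular 10 mm (0 called) it was 1 with DESeq2, 1 with only the groups compared, 1 with the replicate block, 1 with the pan-leukocyte covariate and 1 with the hair shaft covariate. For acellular 15 mm (1 called) it was 0 at a mean of at least 50 counts and 0 with only the groups compared, where Foxp3, the gene called, did not pass the filter on low counts and was not tested (5 and 7 members left), 2 with the pan-leukocyte covariate, 0 with the muscle covariate and 0 to 2 leaving out a sample. For HDB 10 mm (0 called) it was 2 with DESeq2, 1 with only the groups compared, 3 with the pan-leukocyte covariate, 4 with the hair shaft covariate and 0 to 1 leaving out a sample. For HDB 15 mm (0 called) it was 1 with only the groups compared and 2 with the hair shaft covariate. HDB against acellular wounds at 15 mm gave 0 to 2 leaving out a sample (2 without acellular replicate 3). For all wounds, a fit of only the groups compared is the fit reported. The muscle and hair shaft covariates each split every wound from every normal sample. Their fits therefore cannot separate tissue makeup from the comparisons with normal skin.

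With the replicate block the log2 change in HDB against acellular wounds became −0.17 for Foxp3 at 10 mm and 0.13 for Cd4 at 15 mm. The block, the only sign of pairing being at 15 mm, changed no member's call between HDB and acellular wounds. Leaving out a sample, log2 changes of uncalled members crossed 0. In HDB against acellular wounds at 10 mm they ran from −0.051 to 0.36 for Cd247, −0.54 to 0.55 for Foxp3 and −0.23 to 0.52 for Nkg7. At 15 mm they ran from −0.58 to 1.13 for Cd4, −0.055 to 0.56 for Lck, −1.45 to 0.052 for Foxp3 and −0.21 to 1.45 for Nkg7. Over both sizes they ran from −0.76 to 0.096 for Foxp3 and −0.018 to 0.82 for Nkg7, and in wounds against normal skin from −0.28 to 0.11 for Cd3g and −0.57 to 0.0040 for Gzmb.

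The difference in Foxp3 relative to Cd3g lay between 1.58 and 2.21 leaving out a sample, and was 2.37 relative to Cd3e and 1.87 with a pseudocount of 1, each past an exact permutation p of 0.05. Foxp3 in normal skin (3 to 7 reads) and Gzmb (0 to 27 reads) are limited by depth.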
